A study of Mus musculus with 18 samples.

Results

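The SoxB genes are 5 single-exon transcription factor genes of the neural progenitor: Sox1, Sox2 and Sox3, which form the SoxB1 group, and Sox14 and Sox21, which form SoxB2. They were chosen by name, as 5 of 21883 protein-coding genes of the mouse gene table. They were examined for the histone mark H3K27me3 in headfolds, the anterior part of the embryo that gives rise to the brain, at embryonic day 8.5. All embryos were Gulo-/-, lacking the last enzyme of vitamin C synthesis, so that vitamin C came from the supply alone. They were of the background labelled 129 (129S6.B6-Gulo-/- in the series' design) or of B6, and either had vitamin C added to the drinking water (3.3 g/l) or had none, which makes 4 groups of 3 libraries, each with 2 female embryos and 1 male. CUT&Tag, in which an antibody to the mark guides a transposase that cuts out the DNA beside it, was run on 1 headfold per reaction, and peak lists of 12 of the series' 18 samples were used. The 4 IgG controls and 2 further B6 H3K27me3 samples were not analysed here. The 3 B6 embryos with vitamin C share a pregnancy code, and the library numbers of 129 all precede those of B6. Each of the other embryos has a code of its own.

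H3K27me3 is laid down by Polycomb repressive complex 2 and lies over genes of developmental regulators in cells that keep them silent. SoxB1 proteins are activators that hold neural progenitors in an undifferentiated state and are expressed across the early neural plate. SoxB2 proteins carry the same kind of DNA-binding HMG box but act mainly as repressors. Sox21 is known for promoting the step from progenitor to neuron, and Sox14 for its place in subsets of later neurons. The lists hold the mark only, so expression of the 5 genes was not measured. A headfold holds several cell types, so a mark on fewer cells and a weaker mark on each cell cannot be told apart.

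In mm10 coordinates, Sox1 lies on chromosome 8 (12395519 to 12399555), Sox2 on chromosome 3 (34649995 to 34652461), Sox3 on chromosome X (60891366 to 60893430), Sox14 on chromosome 9 (99874106 to 99876170) and Sox21 on chromosome 14 (118233233 to 118237030). Sox1 and Sox2 are inside longer noncoding transcripts, Sox1ot and Sox2ot, and Sox21 overlaps the end of the noncoding gene Gm4675. The 250 bases before the start site, from RefSeq on GRCm38.p6, were matched for 4 of the 5 genes. They are shown because the mark is known to settle on CG-rich start sites, and because the 4 differ in how often a peak covered them. They are printed 5′ to 3′ on the gene's own strand with each CG dinucleotide in capitals: Sox1 chr8:12395269-12395518 (plus strand), Sox2 chr3:34649745-34649994 (plus strand), Sox14 chr9:99876171-99876420 (minus strand) and Sox21 chr14:118237031-118237280 (minus strand).
Sox1: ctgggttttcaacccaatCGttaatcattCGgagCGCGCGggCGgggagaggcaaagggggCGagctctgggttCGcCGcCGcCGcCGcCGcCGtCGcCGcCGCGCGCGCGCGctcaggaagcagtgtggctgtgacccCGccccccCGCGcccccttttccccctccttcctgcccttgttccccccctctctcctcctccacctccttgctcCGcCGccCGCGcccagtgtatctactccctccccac
Sox2: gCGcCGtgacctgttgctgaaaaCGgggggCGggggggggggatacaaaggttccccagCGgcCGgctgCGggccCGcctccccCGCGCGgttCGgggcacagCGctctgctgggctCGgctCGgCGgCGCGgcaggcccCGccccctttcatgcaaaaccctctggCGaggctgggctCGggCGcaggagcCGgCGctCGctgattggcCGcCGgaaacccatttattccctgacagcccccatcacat
Sox14: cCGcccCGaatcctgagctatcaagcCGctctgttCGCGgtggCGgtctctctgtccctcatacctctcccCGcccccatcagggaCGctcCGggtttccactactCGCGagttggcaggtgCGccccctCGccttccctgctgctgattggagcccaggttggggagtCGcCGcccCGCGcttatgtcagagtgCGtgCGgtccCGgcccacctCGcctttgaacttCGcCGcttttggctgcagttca
Sox21: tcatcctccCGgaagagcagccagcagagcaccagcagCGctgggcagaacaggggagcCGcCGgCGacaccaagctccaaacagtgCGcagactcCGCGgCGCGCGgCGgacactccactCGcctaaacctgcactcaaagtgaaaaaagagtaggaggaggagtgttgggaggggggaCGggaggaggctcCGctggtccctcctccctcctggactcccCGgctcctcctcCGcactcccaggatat
The stretches hold 29, 27, 23 and 17 CG dinucleotides in that order, against a median of 6 over 32851 RefSeq start sites. Of all start sites, 94.1% had as many or fewer than Sox1, and 92.4%, 88% and 78.3% had as many or fewer than Sox2, Sox14 and Sox21. Every stretch that a peak touched was covered whole. This was so in 10 libraries for Sox14, 6 for Sox1, 4 for Sox21 and 1 for Sox2. Sox2, with nearly as many CG dinucleotides as Sox1, was the one least often covered. The order of the 4 genes by CG number is not their order by covered libraries. All 4 stretches are in the upper part of the range of CG numbers, and the part of CG number in coverage was not tested.

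Counted over the gene and 1 kb at each end (the window, in which 1 bp of a peak counts), Sox14 had a peak in 12 of 12 libraries, Sox1 in 10, Sox3 in 6, Sox21 in 5 and Sox2 in 2. Of all protein-coding genes, 2.18% had a peak in all 12 libraries and 5.93% in at least 10, and 15.8% had one in at least 2. All 5 SoxB genes therefore belonged to the minority with a repeated peak, and they spread over nearly the whole range within it. The libraries differed in how much they called, with 748 to 4726 peaks, 3.58 to 31.7 Mb covered and 2.97% to 17.1% of coding genes with a peak. All 5 SoxB genes had a peak in the 2 libraries 129 with vitamin C replicate 1 and B6 with vitamin C replicate 4, which covered the most of the genome (31.7 and 27 Mb). Only Sox14 had one in B6 with vitamin C replicate 2, where peaks were short (median 1.41 kb), and in B6 without vitamin C replicate 2, the list of 748 peaks. A second list of short peaks, B6 without vitamin C replicate 1 (median 1.32 kb), held peaks at Sox1 and Sox14. With both short-peak lists left out, the counts were 10 of 10 for Sox14, 9 for Sox1, 6 for Sox3, 5 for Sox21 and 2 for Sox2. The part of sequencing depth in these differences was not tested, since depth is not in the lists.

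**Figure D1:**
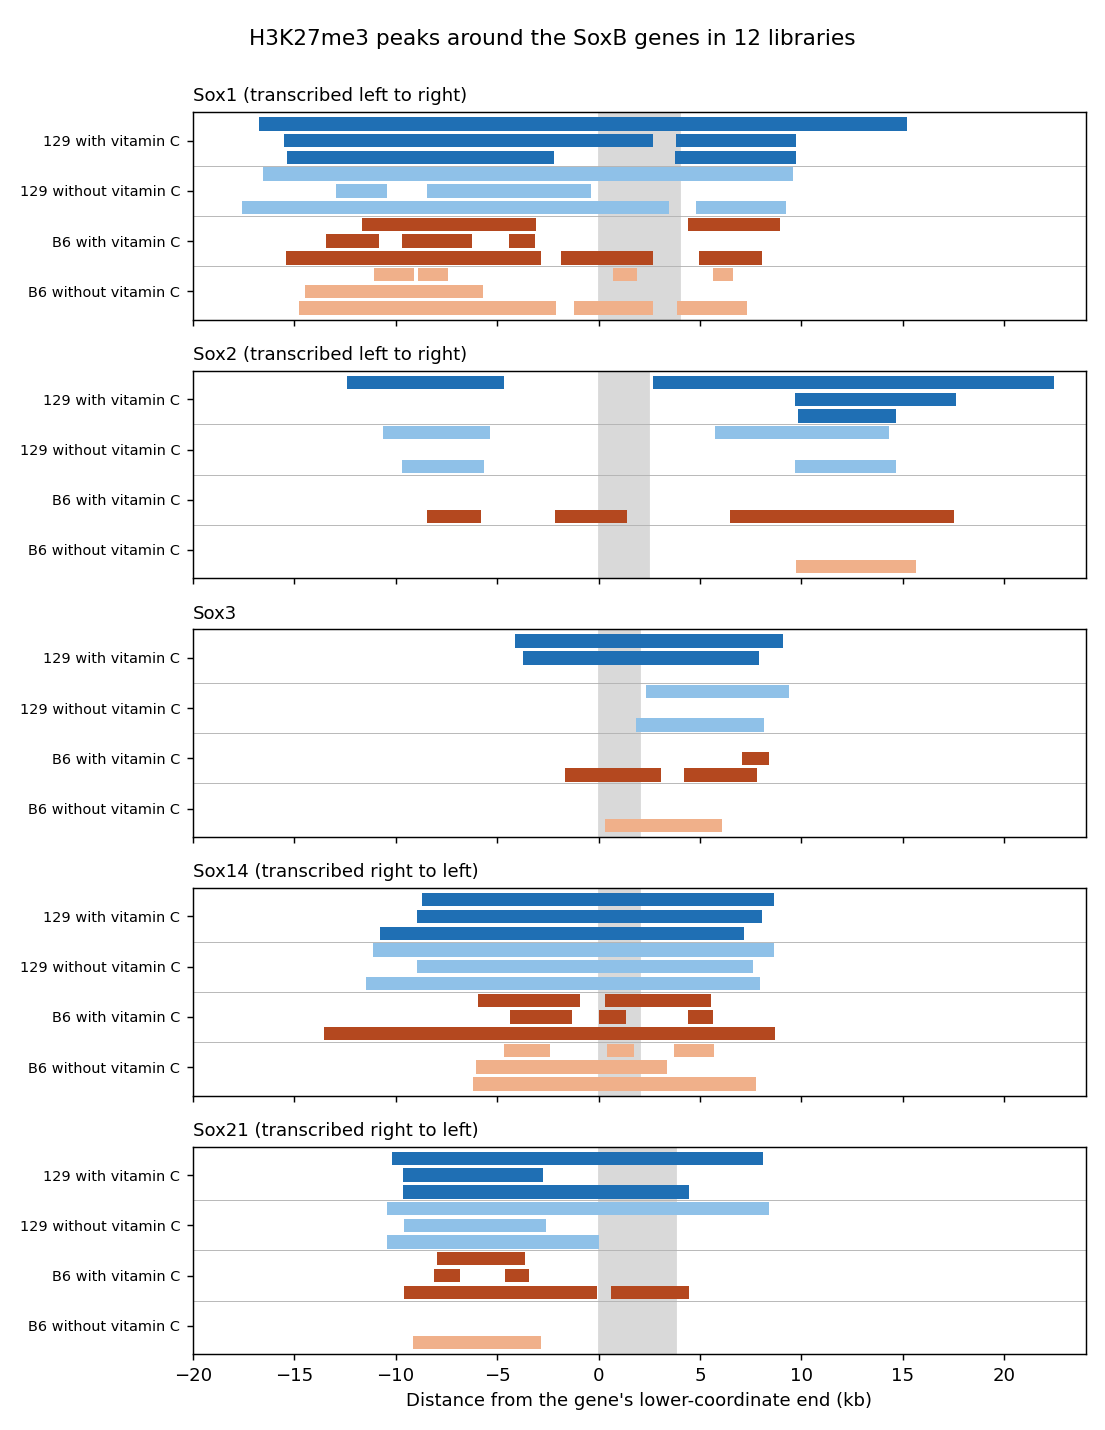
Peaks within 20 kb of each SoxB gene, drawn by distance in kb from the gene's lower-coordinate end, with the gene in grey and 1 line per library in replicate order from top to bottom within each group. Peaks lie over Sox14 in every library, inside the gene in the pair of short-peak lists, whereas at Sox2 they lie beside the gene, mostly to the right past its 3′ end, and at Sox21 mostly to the left, past its 3′ end.

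Sox1, among the first genes switched on in the neural plate, was the most often marked of the SoxB1 group, and peaks were called more often upstream of it than over it. In 129 given vitamin C, 100%, 81.6% and 21.3% of its window was covered (replicates 1, 2 and 3 in order), and in 129 without it 100%, 10.7% and 78.3%. In B6, in the order of replicates 1, 2 and 4, the values were 10%, 0% and 62.5% with vitamin C, and 19.6%, 0% and 80.6% without. High and low values stood side by side in each group. Whatever the window held, a peak lay in the 10 kb upstream of Sox1 in all 12 libraries, covering a median of 85.7% of that stretch against 47.9% of the gene itself and 38.4% of the 10 kb downstream. The gene was covered to a smaller share than its upstream flank in 9 of 12 libraries. The stretches common to all 12 lists lay 7396 to 8460 bp upstream (chromosome 8, 12387059 to 12388123, inside Sox1ot) and 10801 to 11073 bp upstream (12384446 to 12384718). No base of the gene itself was in a peak in more than 7 libraries, the start site was in 6, and the least covered base in 2. A separate domain, also inside Sox1ot, was called in 7 libraries 28.8 kb past the 3′ end (12428394 to 12432864 in all 7).

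Sox2, the pluripotency and neural progenitor factor, was the least marked. Its window held a peak in 129 with vitamin C replicate 1, where 17.2% was covered, and in B6 with vitamin C replicate 4, where 53.5% was covered. In the other 10 libraries it held none. The first of these peaks began past the 3′ end of the gene, so B6 with vitamin C replicate 4 was the one library with a peak over Sox2 itself, a 3.53 kb peak across the start site at the 5.81 percentile of its list by maximum signal. The surroundings were marked more often, with a peak in the 10 kb downstream in 7 libraries and in the 10 kb upstream in 4. In 6 libraries a flank had a peak and the gene had none, and in 3 of these both flanks did (129 with vitamin C replicate 1 and 129 without vitamin C replicates 1 and 3). The stretch shared by all 7 libraries lay 7378 to 11834 bp past the 3′ end (chromosome 3, 34659839 to 34664295), inside Sox2ot. Of all protein-coding genes, those without a nearby peak included, 4.23% had a flank peak and a peak-free body in at least 4 libraries. The share with peaks in both flanks and a peak-free body in at least 3 libraries was 0.16% (35 genes). Among the 1727 coding genes with a peak within 10 kb in at least 10 libraries, as for Sox1 and Sox21, the share with the former pattern was 22.4%. The former pattern was met by Sox1 (4 libraries), Sox2 (6) and Sox21 (5), and the latter by Sox2. These flank counts were made after the peaks had been seen, with cut-offs set by eye. The cut-offs of 4 and 3 libraries equal the counts of Sox1 and Sox2, so these genes were bound to meet them. Sox2, with a peak within 10 kb in 7 libraries, is not among the 1727 genes. A share matched to Sox2 was not made for either pattern. With lists of equal length, libraries with a flank peak and a peak-free gene numbered 7 for Sox1, 0 for Sox2 and 1 for Sox21.

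Sox3, the X-linked SoxB1 gene, was marked in 6 libraries by peaks of very low height. Peaks covered 100%, 100% and 0% of its window in 129 with vitamin C and 18.4%, 0% and 30% in 129 without. In B6 the values were 0%, 0% and 100% with vitamin C and 0%, 0% and 67.8% without. Each group thus held at least 1 library at 0%. Peaks were 4.77 to 13.2 kb wide, but their maximum signal stood at percentiles of 0.489 to 8.4 within their lists (median 1.54). Against peaks of the X chromosome alone, of which the lists with a Sox3 peak held 45 to 93, the share with a maximum as low or lower was 8.89% to 29.2%. The stretches called in all 6 lists lay on the higher-coordinate side, from 252 bp past the gene's end, and the longest spanned 1850 bp, within the noncoding gene Gm38438 (chromosome X, 60895585 to 60897434). The gene itself was covered more than either flank in 4 libraries.

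Sox14 was the one SoxB gene called in every library and the one whose own body held part of the domain's common core. A longer part lay past its 3′ end. Its window was covered to 100% in all 6 libraries of 129. In B6, in the order of replicates 1, 2 and 4, it was covered to 69.9%, 32.5% and 100% with vitamin C, and to 33%, 100% and 100% without. The lowest values, 32.5% and 33%, came from the pair of lists with short peaks. In 9 libraries the whole window was covered, by a single peak of 9.43 to 22.2 kb. A stretch of 941 bp inside Sox14 (chromosome 9, 99874523 to 99875463) was in a peak in all 12 libraries, as was 1967 bp starting 2384 bp past the 3′ end (99869756 to 99871722). The start site was covered in 10 libraries. No library had a peak-free Sox14 beside a flank peak, and the gene was covered more than either flank in 8 libraries. The downstream flank held a median of 88.1% against 56.3% upstream.

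Sox21, the second SoxB2 gene, did not share the pattern of Sox14. Peaks covered 100%, 0% and 94.2% of its window in 129 with vitamin C and 100%, 0% and 17.7% in 129 without. In B6 they covered 0%, 0% and 82.3% with vitamin C, and 0% in each of the 3 libraries without. In each of the 5 libraries with a peak, the larger or only peak of the window stood at a percentile of 81.5 to 89.3 by total signal. In B6 with vitamin C replicate 4 that peak (82.3) lay past the 3′ end, and the peak over Sox21 itself stood at 34.2. The domain was placed downstream of the gene. A peak lay within 10 kb past the 3′ end in 10 libraries (median 69.5% of that stretch covered) and within 10 kb upstream in 4. The stretches shared by those 10 lists lay 3618 to 4607 bp (chromosome 14, 118228626 to 118229615) and 6813 to 7947 bp (118225286 to 118226420) past the 3′ end, the latter inside the noncoding gene Gm32045. The start site was in a peak in 4 libraries, and in 5 libraries the downstream domain stopped short of the gene. Within 10 kb, Sox1, Sox14 and Sox21 had a peak in at least 10 libraries, as did 7.89% of protein-coding genes. Sox2 and Sox3 had one in 7 each.

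**Figure D2:**
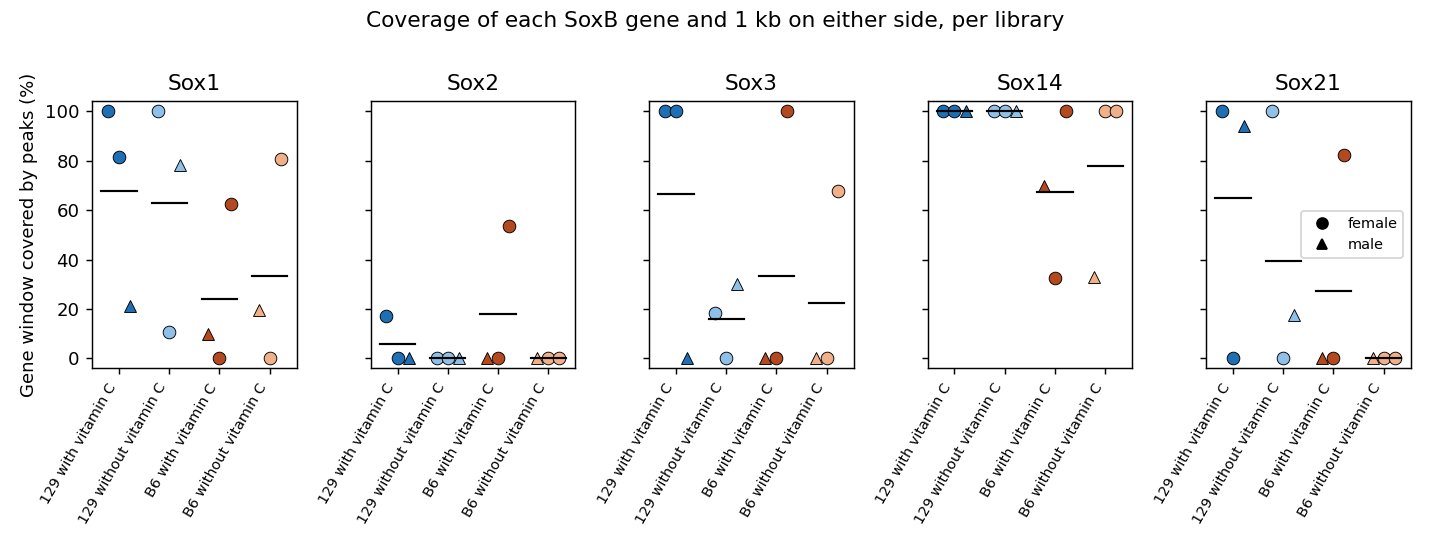
Percent of each gene window (gene plus 1 kb at each end) covered by peaks, 1 point per library, circles for female and triangles for male embryos, with a line at each group's mean. Sox14 sits at 100% in all 6 libraries of 129, and the other 4 genes range from 0% to at least 53.5% with overlapping groups.

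In covered share, the contrast of SoxB1 with SoxB2 was carried by Sox14. The mean covered share of the 3 SoxB1 windows was below that of the 2 SoxB2 windows in 11 libraries and above it in 1 (129 with vitamin C replicate 2, by 10.5 points), and in B6 without vitamin C replicate 4 the difference was only -0.533 points. The difference was -30.4 ± 27.8 percentage points (SD, n = 12), with 29.2% for SoxB1 and 59.6% for SoxB2. Counted by gene and library, 18 of 36 SoxB1 windows and 17 of 24 SoxB2 windows had a peak. Gene by gene, Sox14 was covered more than Sox21 in 10 libraries and equally in 2, more than Sox1 in 10 and equally in 2, more than Sox3 in 9 and equally in 3, and more than Sox2 in 12. Sox21, by contrast, lay within the SoxB1 range of covered share. It was covered less than Sox1 in 6 libraries and more in 2, less than Sox3 in 4 and more in 2, and more than Sox2 in 5 with 7 equal. Sox3 and Sox21 differed by 1.83 ± 52.7 points (SD, n = 12), far less than the spread over libraries. No test was made of the difference between the 2 groups, because the genes were chosen with results known.

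The peaks also differed in rank within their lists, taken for the peak of each window that ranked highest. By maximum signal, Sox14 peaks lay at a median percentile of 82.2 (54.8 to 94.8, 12 libraries), Sox1 peaks at 73.1 (13.1 to 95.3, 10 libraries) and Sox21 peaks at 59.1 (21.5 to 83.2, 5 libraries). Sox2 and Sox3 peaks lay at medians of 10.1 and 1.54, near the bottom. By total signal, which grows with width, the medians were 93.4 for Sox14, 85.7 for Sox21, 65.4 for Sox1, 42 for Sox2 and 15 for Sox3. Both SoxB2 medians were thus above the 3 SoxB1 medians. In the 5 lists with a Sox21 peak, Sox1 stood at 95.3, 27.2, 95.8, 95.7 and 36.5 by total signal. Sox21 stood at 86, 81.5, 89.3, 85.7 and 82.3 in the same lists. By maximum signal, the highest Sox1 peak stood at 64 to 95.3 in 7 libraries and at 13.1 to 28.9 in 3. These 3 were 129 with vitamin C replicate 3, B6 with vitamin C replicate 1 and B6 with vitamin C replicate 4. In the first 2 the window held a peak over or beyond the 3′ end only. Further, lower peaks in the Sox1 window of 4 libraries stood at 20, 24.5, 26.7 and 49.2, each beyond or across the 3′ end. When each list was held to its 748 peaks of largest total signal, Sox14 had a peak in 11 libraries, Sox1 in 5, Sox21 in 4, and Sox2 and Sox3 in 0.

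**Figure D3:**
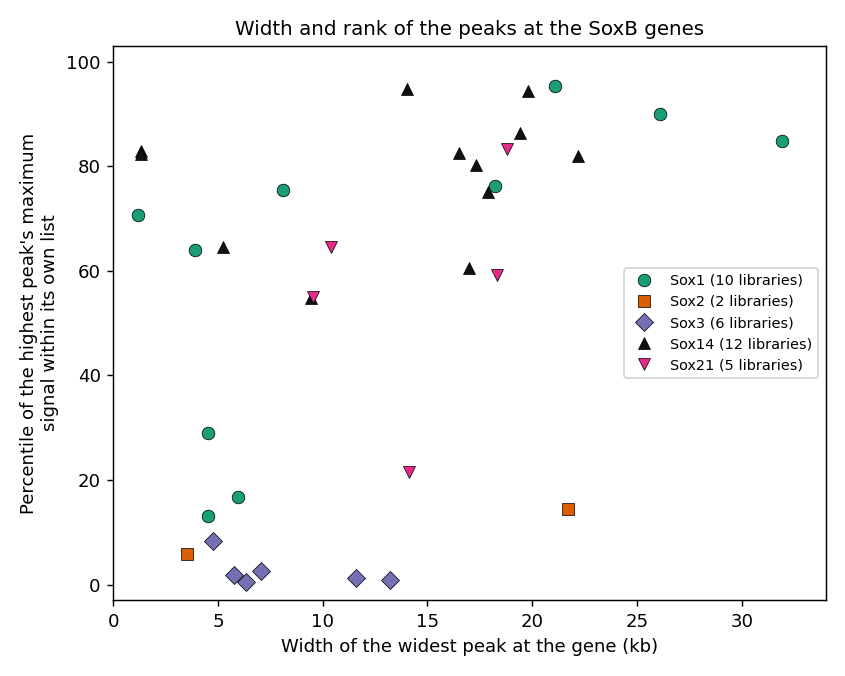
Width of the widest peak at each SoxB gene in kb against the percentile of the highest peak's maximum signal within its own list, 1 point per library with a peak. Sox3 peaks stay at or under a percentile of 8.4 at widths up to 13.2 kb, whereas Sox14 peaks stay at or above 54.8.

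Embryos without vitamin C were compared with those given it, to see whether its withdrawal moved the mark at these genes. Lists without vitamin C covered less of the genome on average. They covered 26.2, 6.97, 25.9, 3.58, 4.15 and 15 Mb, against 31.7, 17.8, 20.5, 11.4, 8.69 and 27 Mb with it. The part of this in the differences below was not tested. Sox1 windows held a peak in 5 of 6 libraries of either diet, Sox3 in 3 of 6 of either and Sox14 in 6 of 6 of either. Sox21 had one in 3 with and 2 without vitamin C, and Sox2 in 2 with and 0 without. Mean covered share without minus with vitamin C was -30.6 points for Sox3 (19.4 ± 26.8% against 50 ± 54.8%, SD, n = 6 each), -26.5 for Sox21 (19.6 ± 40% against 46.1 ± 50.8%) and -11.8 for Sox2 (0% against 11.8 ± 21.6%). It was 2.28 for Sox1 (48.2 ± 42.9% against 45.9 ± 41.2%) and 5.1 for Sox14 (88.8 ± 27.3% against 83.7 ± 27.8%). Without B6 with vitamin C replicate 4 the difference was -14 for Sox3, -12.8 for Sox21 and -2.87 for Sox2, and without 129 with vitamin C replicate 3 it was -47.3 for Sox3. Without 129 with vitamin C replicate 2 or 129 without vitamin C replicates 1 or 2 it was -42.7, -41.7 and -16.7 for Sox21. For each gene the differences over all 12 libraries were smaller than the SD of at least one diet. None passed the test (exact permutation, diet labels exchanged inside each background in all 400 ways, two-sided, smallest possible p 0.005, Benjamini-Hochberg over 3460 coding genes with a peak in at least 2 libraries). The exact permutation p was 0.24 for Sox3, 0.5 for Sox2, 0.55 for Sox21, 0.7 for Sox14 and 0.91 for Sox1, with adjusted p from 0.8 to 1. Over all genes tested, 0 (0%) passed the adjusted threshold of 0.05 and 71 (2.05%) had an unadjusted p under it. Here and in the tests of background and sex, a lone gene could not pass adjustment even at the smallest possible p. Many genes would have to reach that p together, so a failed adjustment cannot show that a gene did not differ.

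Within each background no diet difference passed the test. For Sox3 in 129, 2 of 3 libraries with vitamin C were fully covered (66.7 ± 57.7%, SD, n = 3) and the values without it were 0% to 30% (16.1 ± 15.1%, exact permutation p = 0.4). In B6 the means were 33.3% with and 22.6% without (exact permutation p = 1). For Sox21 the means in 129 were 64.7% with and 39.2% without, and in B6 27.4% and 0%, with an exact permutation p of 1 in both. With 3 against 3 libraries this test cannot go below 0.1. In B6 the 3 libraries with vitamin C come from 1 pregnancy code, so diet and that pregnancy cannot be told apart there. With embryos of 1 pregnancy code averaged, the exact permutation p for diet over both backgrounds was 0.125 for Sox2, 0.212 for Sox21 and 0.225 for Sox3. It was higher for Sox1 and Sox14. Subtracting the diet difference of B6 from that of 129 gave -39.8 points for Sox3, -13.9 for Sox1, -10.2 for Sox14, 12.1 for Sox2 and 1.93 for Sox21 (exact permutation, p from 0.56 to 1).

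Between the backgrounds, means were lower in B6 for Sox1, Sox3, Sox14 and Sox21 and higher for Sox2. The share of all tested genes with a lower mean in B6 was not counted, so this direction is not read as particular to SoxB. The B6 lists also covered less of the genome on average. They covered 11.4, 8.69, 27, 3.58, 4.15 and 15 Mb, against 31.7, 17.8, 20.5, 26.2, 6.97 and 25.9 Mb in 129. The part of this in the differences was not tested. Covered share was 28.8 ± 34.4% in B6 against 65.3 ± 39.4% in 129 for Sox1 (SD, n = 6 each), 13.7 ± 33.6% against 52 ± 50.9% for Sox21, 72.6 ± 33% against 100 ± 0% for Sox14 and 28 ± 44.5% against 41.4 ± 46.8% for Sox3. For Sox2 it was 8.92 ± 21.8% against 2.87 ± 7.03%. The 2 backgrounds overlapped at every gene. By exact permutation of background labels within diet, p was 0.11 for Sox21 (adjusted 0.301), 0.12 for Sox1 (adjusted 0.312), 0.2 for Sox14 (adjusted 0.357), 0.685 for Sox3 and 1 for Sox2. Of the 3460 genes tested, 0 (0%) passed adjustment and 584 (16.9%) had an unadjusted p under 0.05. For Sox14 the difference of -27.4 points was -7.52 without the 2 short-peak lists, both of B6. Background and the run of library numbers cannot be told apart.

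Sox3 was looked at by sex because it is X-linked. Its window held a peak in 5 of 8 female and 1 of 4 male embryos. Covered share in females ranged from 0% through a median of 43.1% to 100%, and in the 4 males it was 0%, 0%, 0% and 30%. The means of 48.3 ± 48.2% (SD, n = 8) and 7.49 ± 15% (SD, n = 4) differed by 40.8 points, which did not pass the test (exact permutation of sex labels within background, 225 relabellings, two-sided, p = 0.209, adjusted p = 1). The female minus male difference at the autosomal genes was 22.1 points for Sox1, 15.8 for Sox14, 8.84 for Sox2 and 7.3 for Sox21 (exact permutation p from 0.391 to 0.911). Of all genes tested for sex, 0 (0%) passed adjustment and 4 (0.116%) had an unadjusted p under 0.05. Peaks on the X chromosome numbered 26, 45, 15 and 41 in the males and 74, 48, 93, 9, 681, 57, 11 and 51 in the females. The part of these numbers in the Sox3 difference was not tested.

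Elsewhere in the Sox family, 6 of the other 15 genes had a peak in at least 10 libraries, 7 in 0 and 2 in between. Since 79.8% of all coding genes had a peak in 0 libraries, a Sox gene at 0 is in the common state and the marked ones are not. The SoxF genes of endothelium and endoderm, Sox7, Sox17 and Sox18, were marked in 12, 11 and 12 libraries. Of SoxE, Sox8 and Sox10 were each marked in 11, and Sox9, a neural crest and glial factor, in 0. The SoxC genes Sox4, Sox11 and Sox12, which follow the SoxB1 genes as neurons form, were marked in 0 of 12 libraries each. In SoxD, Sox6 was marked in 11, Sox5 in 5 and Sox13 in 0, with at most 2.15% of the long Sox6 window covered. Sry and Sox15 were marked in 0 and Sox30 in 3. Sry, counted among the 7 in 0, lies on the Y chromosome, so only the 4 male embryos could have a peak there. SoxB was thus mixed, as were SoxD and SoxE, while the 3 members of SoxF and the 3 of SoxC were alike.

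**Figure D4:**
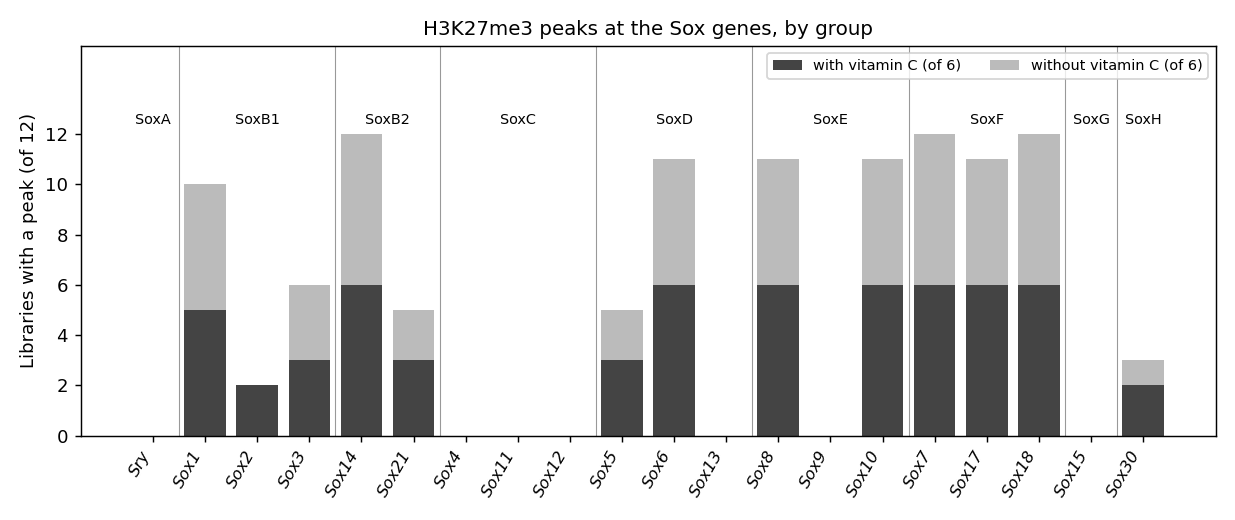
Number of libraries (of 12) with a peak in the window of each Sox gene, stacked by diet (6 libraries each) and ordered by Sox group. Bars reach 12 at Sox14, Sox7 and Sox18 and are absent at the SoxC genes.

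Genes that work with the SoxB factors were counted in the same way, beside 1298 of 21883 coding genes (5.93%) with a peak in at least 10 libraries. Of 26 neural progenitor and neural plate genes, 7 reached 10 libraries or more and 12 (46.2%) had no peak in any, a smaller share than over all coding genes (17457 of 21883, 79.8%). Those marked in all 12 were Pax6, Rax and Lhx2. Those in 0 were Fabp7, Msi1, Msi2, Cdh2, Notch1, Hes1, Lin28a, Ncam1, Gli3, Hesx1, Prom1 and Slc1a3. Of 22 proneural and neuronal genes, 8 reached that number, with Neurog1, Neurog3 and Lhx3 in all 12, and 5 in 0 (Neurod4, Sox11, Sox4, Elavl4 and Myt1). Of 14 factors that act with or above SoxB proteins, 6 reached it, with Pax6 and Cdx2 in all 12. The POU factors Pou3f2 and Pou3f3, DNA-binding partners of Sox2 in neural cells, were marked in 11 and 10. Pou5f1, its partner in pluripotent cells, was marked in 9. The other POU genes of the list differed, with Pou3f1 in 8 and Pou3f4 in 0. Chd7, Nanog, Gmnn and Tcf7l1 were also in 0.

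For other cells that a headfold can hold, at least 10 libraries marked 3 of 5 genes of head mesenchyme and heart (Nkx2-5, Hand2 and Tbx5, all in 12), 3 of 3 of foregut endoderm, 2 of 4 of neural crest (Foxd3 in 12, Sox9 in 0), 2 of 4 of blood and endothelium (Tal1 in 12, Hbb-bh1 and Gata1 in 0) and 1 of 7 of surface ectoderm (Krt18 in 0). Over all coding genes, 5.93% had a peak in at least 10 libraries and 79.8% in 0. The lists of neural crest and head mesenchyme share a gene. Sox9, Sox10 and Sox17 were also counted in the Sox family above. All these counts are of the mark, not of the cells.

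The nearest protein-coding genes of the table on either side, A230072I06Rik and Spaca7 for Sox1, Dnajc19 and Atp11b for Sox2, Gm715 and Cdr1 for Sox3, Cldn18 and Il20rb for Sox14, and Gpr180 and Gm9376 for Sox21, had a peak in 0 libraries each, at distances of 30.1 to 1102 kb, as did 79.8% of coding genes. The overlapping noncoding genes did carry peaks, Sox1ot in 12 libraries, Sox2ot in 7 and Gm4675 in 4. By correlation of covered share over the 12 libraries, whatever its level, the genes most like Sox14 were Msx1 (Pearson r = 0.975), Kcnk15 (0.965) and Ccdc184 (0.957). Most like Sox1 were Foxb1 (0.975), Pank4 (0.965) and Irx2 (0.952), and most like Sox21 were Gpat3 (0.989), Rem2 (0.986) and Lbh (0.984). For Sox3 they were Kcnh3 (0.947), Ccl21b (0.940) and Mapk11 (0.906), and for Sox2, which rests on 2 libraries with a peak, Crip2 (0.978), Slc43a1 (0.972) and Gstt1 (0.968). The 12 points share each library's depth and peak width, so these values are descriptions of likeness alone. Likeness in r was not likeness in level: Pank4 reached at most 9.15% covered (43.2 points from Sox1 on average), Gpat3 9.23%, Lbh 11.1% and Ccl21b 5.56%, whereas Msx1 lay 5.4 points from Sox14 on average.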

How the data were processed

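The authors deposited 1 list of H3K27me3 peaks per library, with the position, total signal and maximum signal of each peak in 6 columns. Per the submitters' processing notes, the tools were cutadapt, Bowtie2, Picard and SEACR, and the build was mm10. The sources used here do not give versions, settings or whether IgG served as control. The deposited signal values carry no visible scaling to a common depth, so they were used only as ranks within a list. Depth per library, and so the precision it gives, is unknown.

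Gene positions came from RefSeq genes of GRCm38.p6. Strand was taken from the RefSeq start-site sequences. Covered share is the percent of gene plus 1 kb at each end that lies in peaks. The exact permutation tests used all relabellings within strata and Benjamini-Hochberg adjustment across 3460 genes. The diet test was tried on simulated data, where recovery of shifted genes was required at unadjusted p only. The simulated shift set the diets apart without overlap, and the many zeros and ties of the real values were not simulated. That trial therefore cannot show how the tests do on values like these. The members and lists were chosen with earlier results of these data known. Named genes are the members, the other Sox genes, neighbours, the 3 genes per member with the highest Pearson r (leaving out genes within 100 kb), and list members in all 12 or 0 libraries. Sox5, Sox6, Sox8, Sox10, Sox17, Sox30, Pou3f1, Pou3f2, Pou3f3 and Pou5f1 have counts in between. The POU genes among these were named after their values were seen. Alternatives were other windows, peak filters, equal lists, joined peaks, presence in place of covered share, other strata, a replicate block, embryos of 1 pregnancy averaged, and left-out libraries. Replicate numbers follow accession order. Python 3.11.15, NumPy 2.4.6, pandas 2.3.3 and Matplotlib 3.10.9 were used.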

Additional observations from a re-analysis of the deposited data

How the results depend on the processing

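With only the 748 peaks of largest total signal per list, the number of libraries with a peak was 5 for Sox1, 0 for Sox2 and 0 for Sox3. With only the upper part of each list, from its median maximum signal up, it was 0 for Sox2 and 0 for Sox3. With at least 50% of the window covered it was 6 for Sox1 and 1 for Sox2, and with no extension of the gene it was 1 for Sox2. With 5 kb at each end it was 10 for Sox21. Leaving out 1 library at a time gave 1 to 2 for Sox2. The difference between SoxB1 and SoxB2 kept its sign in 19 of 19 alternatives, from -24.9 to -45.2 points.

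Of 236 alternatives to the tests of diet, background and sex (Sox3), 0 passed the adjusted threshold and 16 changed sign. Alternatives that left a gene with a peak in fewer than 2 libraries had no adjusted p and so could not pass. Sox2 and Sox3 had no peak with equal lists or at or above the median maximum signal, so their differences there were 0. A lone gene could not pass the adjusted threshold with so few relabellings, so the 0 that passed cannot show that an effect was absent. With 5 kb at each end the diet difference was -10.5 for Sox1 and -1.27 for Sox14, and the background difference was -3.14 for Sox2. Without the short-peak lists the diet difference was -0.32 for Sox1 and the background difference 0.551 for Sox3. With peaks at or above the median maximum signal the diet difference was 0.285 for Sox21. Leaving out 1 library at a time, the diet difference ran from -9.52 to 15.4 for Sox1, from -3.64 to 16.3 for Sox14, from -16.2 to -2.87 for Sox2, from -47.3 to -14 for Sox3 and from -42.7 to -12.8 for Sox21, and the background difference from -2.87 to 10.5 for Sox2. The cause of these changes was not tested. The unadjusted exact permutation p for the Sox1 background difference was 0.04 with 5 kb at each end (-43.4 points, adjusted 0.208) and 0.02 with equal lists (-57.7 points, adjusted 0.181).

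The number of libraries with a flank peak and no peak over the gene, an alternative chosen after seeing the data, was 7, 0, 0, 1 and 1 for Sox1, Sox2, Sox3, Sox14 and Sox21 with equal lists. It was 6, 0, 0, 0 and 2 at or above the median maximum signal, and 3, 6, 1, 0 and 4 without the short-peak lists. Replicate numbers follow accession order and pair nothing. A replicate block was therefore added after seeing the data, in which consecutive library numbers of 1 background and sex form 6 pairs with and without vitamin C. The labels do not say that these numbers mark a shared day. The deviations of paired libraries from their group means correlated at -0.0359 to 0.518 across 3460 genes, under 0.1 in both male pairs. With the block the diet differences were 2.28 for Sox1, -11.8 for Sox2, -30.6 for Sox3, 5.1 for Sox14 and -26.5 for Sox21, with exact permutation p from 0.25 to 1 (64 relabellings, smallest possible 0.0312). Sox2 and Sox21 were each lower without vitamin C in 2 pairs and equal in 4. Of 3460 genes, 191 had an unadjusted p under 0.05 with the block, against 71 without it, and 0 passed adjustment. The smallest possible p was 0.0312 with the block and 0.005 without it, so these counts are not on the same footing. A window without a peak is one not called at an unknown depth.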
